A study of Mus musculus with 39 samples.

Results

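The mouse genes described here are 10 maternal-effect genes, whose transcripts are stored in the oocyte and whose products act in the embryo before its own genome takes over. They comprise the 6 genes of the subcortical maternal complex and its partners (Nlrp5, Ooep, Tle6, Khdc3, Padi6 and Zbed3) and 4 other maternal-effect genes (Dppa3, Npm2, Zar1 and Zar1l). The members were taken from this list of symbols, and the array's probes were assigned to them by transcript accession. Of the 10 genes, 9 were measured, each by 1 probe, among 18888 gene symbols on the array in all; no probe was assigned to Zar1l, which is not analysed here. All 9 passed the filter on dim probes, which left 39520 probes to be tested.

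Each of the 39 arrays measured RNA from 10 pooled oocytes or embryos, or from 500 cumulus cells, after 2 rounds of linear amplification. All samples were of (C57BL/6 x DBA/2)F1 mice (BDF1, labelled (B6xDBA/2)F1), with oocytes and cumulus cells from females aged 8 to 10 weeks. The groups were unfertilised metaphase II oocytes (OC, n = 7), 2-cell embryos from in vitro fertilisation (IVF, n = 6), 2-cell embryos cloned by somatic cell nuclear transfer (SCNT) from cumulus cells without trichostatin A (TSA(-), n = 8), the same with 5 nM trichostatin A, a histone deacetylase inhibitor, for 8 h from activation (TSA(+), n = 6), cumulus cell clones injected at the pronuclear stage with Spi-C mRNA at 1.0 mg/ml (Spi-C 1.0, n = 4) or 0.1 mg/ml (Spi-C 0.1, n = 4), and the donor cumulus cells themselves (Cumulus, n = 4). Spi-C is a transcription factor of the ETS family, and embryos were collected after 24 h in culture. Every clone carries a cumulus cell nucleus in an enucleated oocyte, so its stored transcripts come from the recipient oocyte. The labels do not say that replicates came from separate collections, so p-values measure the spread between these arrays, which may be technical. Because each array pools whole embryos, fewer copies in every embryo and loss from some of the embryos cannot be told apart.

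Nlrp5 (also called MATER), Ooep (FLOPED), Tle6 and Khdc3 (FILIA) encode proteins that assemble beneath the oocyte membrane into the subcortical maternal complex, and mouse embryos made from eggs without Nlrp5, Ooep, Tle6 or Padi6 arrest in early cleavage. Padi6, a peptidylarginine deiminase family protein, is needed for the cytoplasmic lattices of the egg, and Zbed3 is a zinc finger protein that associates with the complex. Dppa3 (STELLA, PGC7) protects the maternal genome from oxidation of methylated DNA, Npm2 is the oocyte's nucleoplasmin, a histone chaperone, and Zar1 with its relative Zar1l encodes RNA-binding proteins that hold maternal mRNAs in the oocyte. Stored mRNAs are removed in waves from oocyte maturation to the 2-cell stage, while their proteins can last longer. The array reports only the mRNA.

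E-boxes, the letters CANNTG, are bound by basic helix-loop-helix factors, among them FIGLA, an oocyte factor known for its action on the zona pellucida genes. RefSeq promoters of GRCm38.p6, 250 bases before to 50 after an annotated start, were found for 8 of the 10 members (12 promoters); none was found for Dppa3 and Npm2. The 100 bases before the start are shown for the 5 members with an E-box there, 5′ to 3′ on the gene's strand, with each E-box in capitals. For Zbed3 the second of its 3 annotated starts is shown, and the third also had an E-box, CAGCTG beginning 40 bases before it. The stretches shown for Khdc3, Zar1 and Zbed3 lie inside the annotated span of the gene, before an internal start.

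Padi6, chr4:140742644-140742743, minus strand: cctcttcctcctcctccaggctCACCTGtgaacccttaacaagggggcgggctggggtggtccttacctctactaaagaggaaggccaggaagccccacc
Khdc3, chr9:73102298-73102397, plus strand: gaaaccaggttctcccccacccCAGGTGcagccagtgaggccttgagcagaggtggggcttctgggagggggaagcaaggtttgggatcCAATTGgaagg
Ooep, chr9:78378589-78378688, minus strand: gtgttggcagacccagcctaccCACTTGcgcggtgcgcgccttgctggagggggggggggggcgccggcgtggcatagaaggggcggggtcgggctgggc
Zar1, chr5:72581085-72581184, minus strand: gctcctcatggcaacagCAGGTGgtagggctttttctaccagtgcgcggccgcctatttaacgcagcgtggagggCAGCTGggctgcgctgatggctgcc
Zbed3, chr13:95324725-95324824, plus strand: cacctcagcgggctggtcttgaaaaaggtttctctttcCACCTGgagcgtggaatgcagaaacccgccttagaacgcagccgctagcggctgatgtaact

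In Padi6, Khdc3 and Ooep the E-box began 78 bases before the start, and in Zar1 it began 83 bases before. An E-box beginning 70 to 90 bases before the start was held by these 4 of the 12 member promoters and by 9.73% of the 32851 promoters in the table, a window chosen after the positions had been seen. The form CAGGTG, read on either strand and counted among the E-boxes above, lay in the 100 bases before the start of Padi6, Khdc3, Zar1 and Zbed3 (4 of 12 promoters) and of 7.03% of all promoters. Any E-box lay in this stretch in 6 of 12 member promoters and in 34.4% of all. In the same 100 bases, read on either strand, the homeobox element TAATTG was in none of the 12, against 2.55% of all promoters. The letters TATAAA of the TATA box were in 1 of them, an Nlrp5 promoter, against 5.56% of all promoters. That match lay on the opposite strand, as TTTATA beginning 56 bases before the start. Only these exact letters were searched, so near forms of a TATA box were not counted. The matches of Padi6, Ooep and Zar1l to TAATTG, and of Zbed3 to TATAAA, lay outside this stretch. These matches describe the letters only; binding was not measured.

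**Figure D1:**
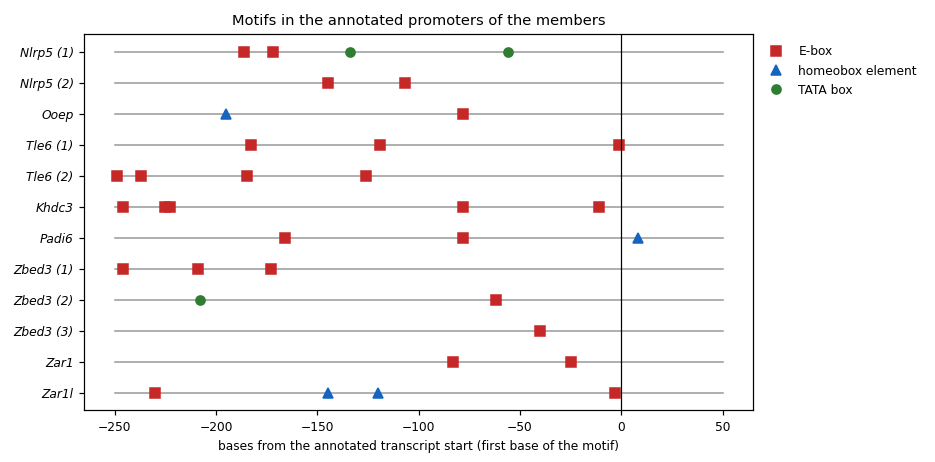
Positions of 3 motifs, searched on both strands, in the 12 annotated promoters of 8 members; the x axis gives the bases from the annotated start to the motif's first base, and a number in brackets tells starts of 1 gene apart. Squares (E-box, CANNTG) line up at 78 bases before the start in Ooep, Khdc3 and Padi6, with Zar1 at 83.

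Levels are given as the log2 signal over the 75th percentile of the same array, so that 0 is that percentile. The intensity at this percentile was lower in OC arrays (median 392) than in IVF (1112), TSA(-) (1451) or TSA(+) (1372) arrays, and 48.6 to 59.9% of the probes were well above background in OC against 66.8 to 77.5% in the 3 latter groups. The Spi-C and Cumulus arrays were on slides of their own, read with another scanner model and software version. All 8 oocyte markers were higher in OC than in Cumulus, and Zp2, Bmp15, Oosp1 and Mos were not well above background on any Cumulus array. Of the 12 cumulus markers, 9 were lower in OC, Amh and Foxl2 were higher and Has2 did not pass the test; their summed linear level was 1.50 to 4.05 in OC, 0.451 to 0.976 in TSA(-), 0.330 to 0.739 in TSA(+) and 460 to 577 in Cumulus arrays.

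**Figure D2:**
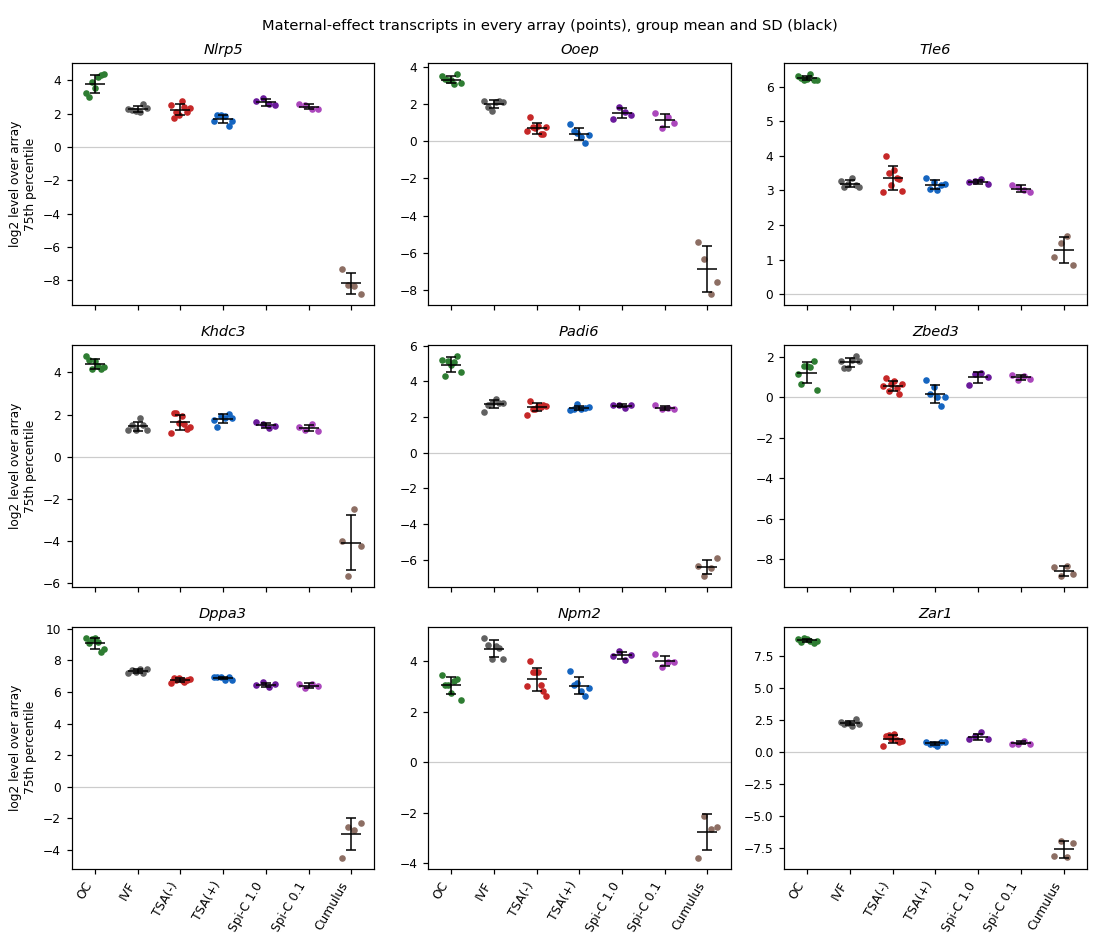
Levels of the 9 measured members in each of the 39 arrays (points), by group, with the group mean and SD in black; the y axis is the log2 signal over the array's 75th percentile and differs between panels. OC arrays were highest for 7 members, IVF arrays for Zbed3 and Npm2 on average, and the 4 Cumulus arrays lay below every other array in all 9 panels.

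In the oocyte, transcripts of all 9 members were present, well above background on all 7 OC arrays, and all 9 were higher than in the cumulus cells that surround it. By limma, 9 of 9 were called higher at an adjusted p under 0.01, with no overlap of the arrays, where 67.6% of all probes were called, 44.1% in this direction, and 65.3% had no overlap (44.4% higher in OC). Of all called probes 65.2% were higher in OC (53.9 to 78.4% under the other scalings). The Cumulus arrays had slides, scanner and software of their own, so cell type and these cannot be told apart.

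For Zar1, the zygote arrest gene, the OC level ran from 8.51 over a median of 8.71 to 8.95, and no Cumulus array was well above background (-8.11, -6.96, -8.26 and -7.14). For each Cumulus array, its lowest signal well above background was taken, or the probe's own where higher. Against this floor, and with the main scaling only, Zar1 was at least 37780-fold higher in OC, a log2 bound of 15.21 (adjusted p = 3.2e-32 by limma on the measured values). Nlrp5 and Zbed3 were likewise not well above background on any Cumulus array. With the same floor and scaling they were at least 1220-fold (log2 10.25, adjusted p = 4.8e-26) and at least 204-fold (log2 7.67, adjusted p = 7.9e-25) higher in OC. These 3 were thus not distinguishable from background in the donor cells. Their bounds depend on the scaling. With normexp the measured log2 differences were smaller, at 12.58 for Zar1, 7.68 for Nlrp5 and 5.02 for Zbed3. With quantile normalization Zar1 was at 13.76, below its bound, and Nlrp5 (10.64) and Zbed3 (9.34) were above theirs. With centring on the array median all 3 were above.

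Ooep and Padi6 were well above background on 2 of the 4 Cumulus arrays each. Their measured log2 differences of 10.20 and 11.33 include background values on the other 2 arrays, so their size is uncertain. Dppa3, Khdc3 and Npm2 were well above background on all 4 Cumulus arrays but dim, at median intensities of 156, 54.6 and 144, and differed from OC by 12.11, 8.49 and 5.83 on the log2 scale. Tle6 was the member with a clear signal in the donor cells. Its Cumulus levels were 1.08, 1.48, 1.68 and 0.83, all above the 75th percentile of their arrays, and its OC levels ran from 6.19 over 6.23 to 6.37, a 31.6-fold difference (log2 4.98 ± 0.17, adjusted p = 2.1e-21). Tle6 belongs to the family of the Groucho corepressors.

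From oocyte to fertilised 2-cell embryo, most of the members were lower, and Zar1 by far the most. Of 9 members, 7 were called lower in IVF than in OC, Npm2 was called higher, and Zbed3 did not pass the test (adjusted p = 0.030). Across all probes 66.0% were called, 42.6% lower and 23.4% higher, so a lower call is common among all probes; with quantile normalization 4 members were called lower and 2 higher. The arrays did not overlap for 8 of 9 members, against 52.1% of all probes (33.5% lower and 18.5% higher). The median log2 difference was -1.74 over the 9 members and -0.87 over all probes. This median of all probes depends on the scaling (-0.29 with quantile normalization, -1.55 with centring on the array median and -1.27 with normexp), and the share of called probes that were higher was 35.4% here and 18.6 to 43.5% under those scalings.

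Zar1 levels in IVF ran from 2.06 over 2.26 to 2.56, against 8.51 to 8.95 in OC. No IVF array came near the oocyte range. The log2 difference was -6.46 ± 0.18 (SE), 87.8-fold lower (adjusted p = 1.3e-22), and only 0.294% of the probes tested lay further down. On the 2 slides that held both groups the difference was -6.67 and -6.45. With quantile normalization it was -4.27.

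Among the core of the complex, Tle6 was lower in IVF by 8.32-fold (log2 -3.06 ± 0.15) and Khdc3 by 7.77-fold (-2.96 ± 0.29). Their OC arrays spanned 6.19 to 6.37 and 4.14 to 4.79, and their IVF arrays 3.09 to 3.35 and 1.26 to 1.82. Padi6, at 4.29 to 5.42 in OC and 2.30 to 3.01 in IVF, was 4.63-fold lower (-2.21 ± 0.17). These 3 lay 1.34 to 2.18 below the median of all probes. The adjusted p was at most 1.9e-10 by limma, and they were lower on both shared slides. With quantile normalization they were called lower by less, at -1.13 for Tle6, -1.63 for Khdc3 and -0.66 for Padi6.

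Nlrp5 and Ooep were less far down. Nlrp5 ran from 3.01 over 3.90 to 4.37 in OC and from 2.11 over 2.25 to 2.55 in IVF (log2 -1.51 ± 0.23, adjusted p = 1.2e-06). Ooep ran from 3.07 over 3.28 to 3.61 in OC and from 1.60 over 2.11 to 2.19 in IVF (-1.31 ± 0.27, adjusted p = 0.00010). Neither overlapped between the groups, yet both calls rest on the scaling: with quantile normalization the differences were -0.32 (adjusted p = 0.32) and -0.28 (adjusted p = 0.44). Before scaling, the median Nlrp5 intensity was 5141 in OC and 5470 in IVF.

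Dppa3 was the brightest case of this kind. It ran from 8.52 over 9.15 to 9.43 in OC and from 7.22 over 7.35 to 7.48 in IVF, 3.35-fold lower (-1.74 ± 0.22, adjusted p = 5.4e-08), but its sign turned with quantile normalization (0.47, adjusted p = 0.033). Its median intensity was 212105 in OC and 191250 in IVF, with no saturated spot.

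Npm2 went the other way. The histone chaperone ran from 2.48 over 3.07 to 3.48 in OC and from 4.08 over 4.58 to 4.94 in IVF, with every IVF array above every OC array. It was 2.72-fold higher (1.45 ± 0.24, adjusted p = 5.6e-06), at 1.44 and 1.46 on the shared slides, and its size moved with the scaling (0.76 with centring on the array median and 2.53 with quantile normalization, both called). Zbed3 overlapped between the groups, from 0.36 over 1.46 to 1.76 in OC and from 1.43 over 1.77 to 2.03 in IVF. Its difference of 0.51 (95% interval 0.08 to 0.95) was called with normexp (0.57, adjusted p = 0.0083) and with quantile normalization (0.95, adjusted p = 0.00033), and was -0.17 with centring on the array median.

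**Figure D3:**
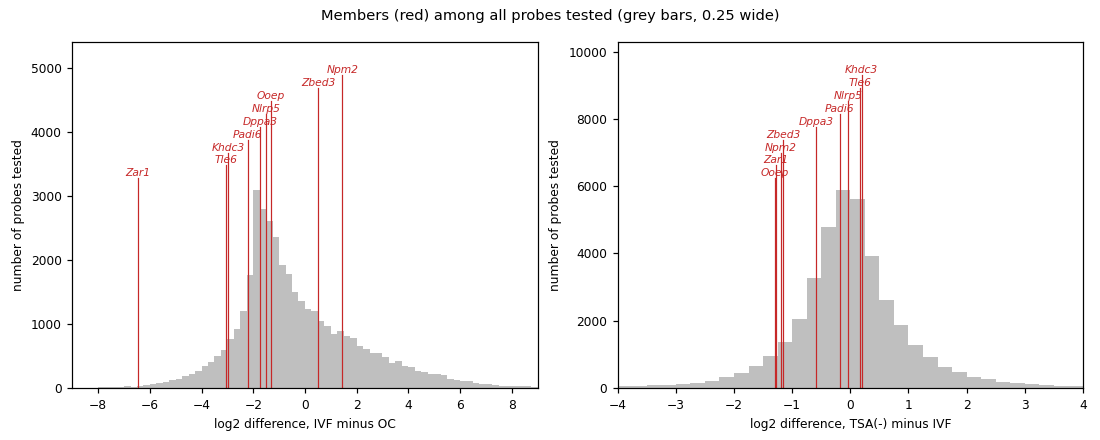
Log2 differences of the members (red lines, labelled at staggered heights for legibility) among those of all probes tested (grey bars, 0.25 wide), for IVF minus OC on the left and TSA(-) minus IVF on the right. The y axis counts probes, and the probes beyond the plotted x range, in both tails of each panel, are not shown. Zar1 lies in the far left tail of the first panel, at -6.46, and 4 members lie together between -1.29 and -1.16 in the second.

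Cloned embryos without trichostatin A held lower levels of 4 members than fertilised embryos of the same stage: Ooep and Zbed3 of the complex, and Zar1 and Npm2 of the others. None was called higher. The 4 of 9 called compare with 18.7% of all probes called, 10.2% lower, and the median log2 difference was -0.59 over the members and -0.04 over all probes. The arrays did not overlap, and were lower in TSA(-), for 5 of 9 members (these 4 and Dppa3), against 14.8% of all probes, 8.16% lower. All comparisons with IVF share the same 6 IVF arrays.

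Zar1 ran from 0.49 over 0.97 to 1.39 in TSA(-), below the whole IVF range of 2.06 to 2.56. It was 2.42-fold lower (log2 -1.28 ± 0.17 SE, adjusted p = 1.6e-06), with -1.11 to -1.08 on the 3 slides that held both groups. Ooep ran from 0.37 over 0.73 to 1.30, against 1.60 to 2.19 in IVF, and was 2.45-fold lower (-1.29 ± 0.27, adjusted p = 0.00041). Both transcripts were thus further from their oocyte levels in clones than in fertilised embryos.

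Npm2 and Zbed3, in contrast, had been at their highest mean level in IVF embryos. Npm2 ran from 2.64 over 3.33 to 4.0 in TSA(-), below the IVF range of 4.08 to 4.94 and across the OC range of 2.48 to 3.48 (-1.20 ± 0.24 against IVF, adjusted p = 0.00027). Zbed3 ran from 0.14 over 0.60 to 0.93, below the IVF range of 1.43 to 2.03 and overlapping that of OC (-1.16 ± 0.21, adjusted p = 7.3e-05). On each of the 3 shared slides all 4 of these members were lower in TSA(-).

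Dppa3 was lower in every TSA(-) array, from 6.55 over 6.75 to 6.88, than in any IVF array, from 7.22 over 7.35 to 7.48. Its difference of -0.59 did not pass the test (adjusted p = 0.040) in the fit that holds the Cumulus arrays, where its SD was 1.01 against 0.0913 to 0.350 in the other groups. In a fit of IVF and TSA(-) alone the adjusted p was 0.00042, and in the same fit without the Cumulus arrays, added after the data had been seen, it was 0.0010. With the Cumulus arrays in the fit, Dppa3 was called with normexp (-0.57, adjusted p = 0.0024). It was not called with quantile normalization (-0.40, adjusted p = 0.11), centring on the array median (-0.58, adjusted p = 0.057) or the authors' values (-0.61, adjusted p = 0.035). On the 3 shared slides the difference was -0.79 to -0.35.

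The rest of the complex was not called. The log2 differences were -0.04 for Nlrp5 (95% interval -0.50 to 0.42), 0.17 for Tle6 (-0.13 to 0.47), 0.20 for Khdc3 (-0.37 to 0.76) and -0.18 for Padi6 (-0.53 to 0.16). Their TSA(-) arrays overlapped those of IVF in each case. Each of these intervals lay within a 2-fold difference in either direction. The Cumulus arrays in the fit widen the intervals of Khdc3 and Ooep. There the SD was 1.31 for Khdc3 and 1.24 for Ooep. In the other groups of the fit it was 0.218 to 0.356 for Khdc3 and 0.195 to 0.337 for Ooep. In a limma fit of IVF and TSA(-) alone, Khdc3 had an adjusted p of 0.45. TSA(-) replicate 2 was the highest of its group for 5 of 9 members, and replicate 1 the lowest for 5; with either left out, 4 members were called.

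**Figure D4:**
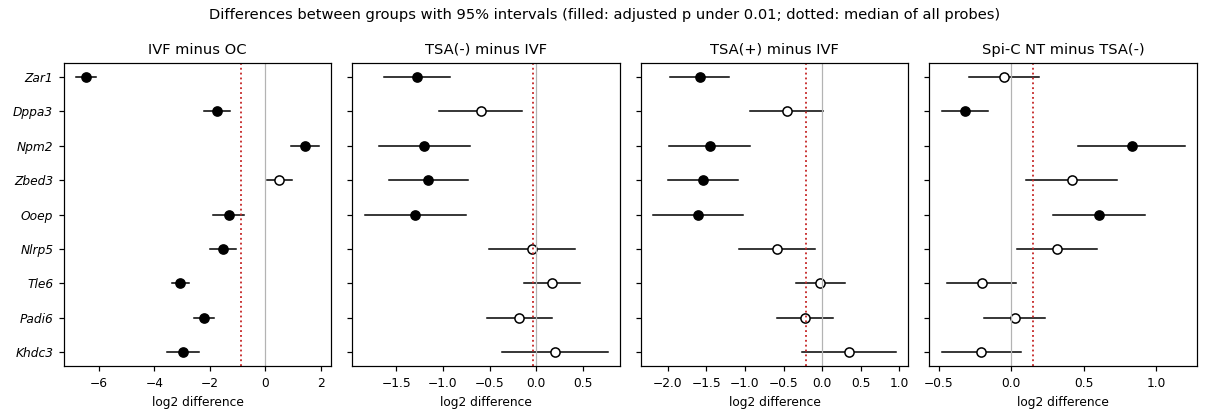
Log2 differences of the 9 members (points) with 95% intervals (lines) in 4 comparisons, filled where the limma adjusted p is under 0.01, with the median of all probes as a dotted red line; the x axes differ. Zar1, Npm2, Zbed3 and Ooep are filled on the low side in both comparisons of clones with IVF, and Npm2 and Ooep are filled on the high side for Spi-C NT.

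With trichostatin A, the same 4 members by name were called lower than in IVF, and none higher. Here 18.8% of all probes were called, 10.8% lower (42.7% of called probes were higher, 38.0 to 59.4% under the other scalings). The median log2 difference was -0.59 over the members and -0.21 over all probes. The differences were -1.61 ± 0.28 (SE) for Ooep (adjusted p = 7.2e-05), -1.59 ± 0.19 for Zar1 (adjusted p = 1.5e-07), -1.55 ± 0.22 for Zbed3 (adjusted p = 3.5e-06) and -1.46 ± 0.25 for Npm2 (adjusted p = 5.7e-05). The TSA(+) arrays ran from -0.07 over 0.38 to 0.94 for Ooep, from 0.51 over 0.70 to 0.81 for Zar1, from -0.44 over 0.08 to 0.84 for Zbed3 and from 2.62 over 3.0 to 3.61 for Npm2. All lay below the IVF arrays. With centring on the array median the differences were -1.41 for Ooep, -1.39 for Zar1, -1.35 for Zbed3 and -1.26 for Npm2.

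Nlrp5 and Dppa3 also had every TSA(+) array below every IVF array, which makes 6 of 9 members without overlap against 20.2% of all probes, 11.2% lower. Nlrp5 ran from 1.27 over 1.73 to 1.93, a difference of -0.59 (adjusted p = 0.065, and 0.0079 in a fit of the 2 groups alone). Dppa3 ran from 6.76 over 6.93 to 6.97, a difference of -0.46 (adjusted p = 0.14, and 0.0047 in a fit of the 2 groups alone). Neither was called by limma under any other alternative. With quantile normalization the differences were -0.60 for Nlrp5 (adjusted p = 0.13) and -0.21 for Dppa3 (adjusted p = 0.50). With centring on the array median they were -0.39 (adjusted p = 0.25) and -0.26 (adjusted p = 0.48). Khdc3 (0.35), Tle6 (-0.03) and Padi6 (-0.22) did not pass the test. On the 3 slides that held both groups, Khdc3 was higher in TSA(+) by 0.33 to 0.60. In a limma fit of the 2 groups alone its adjusted p was 0.084.

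Between TSA(+) and TSA(-), 0 of 9 members were called by limma and 0 by a one-way analysis with Tukey's HSD, where limma called 0.144% and the one-way analysis 1.98% of all probes. At an unadjusted p under 0.05 there was 1 member, Nlrp5, with a difference of -0.55 (95% interval -1.01 to -0.09, adjusted p = 0.22). The arrays of both groups overlapped for all 9 members, against 1.47% of probes without overlap. For the 4 members that were lower in clones the differences were -0.31 for Zar1 (95% interval -0.67 to 0.04), -0.31 for Ooep (-0.86 to 0.23), -0.39 for Zbed3 (-0.81 to 0.03) and -0.26 for Npm2 (-0.75 to 0.23). Each estimate was below 0, further from IVF, but none passed the test. Each interval excludes a gain of the size by which the clones lay below IVF. The median over all probes was also below 0, at -0.10. With centring on the array median it was 0.08, and the estimates were -0.13 for Zar1, -0.13 for Ooep, -0.21 for Zbed3 and -0.08 for Npm2.

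In clones injected with Spi-C mRNA, Npm2 and Ooep were called higher than in TSA(-) and Dppa3 lower. These 3 of 9 compare with 20.9% of all probes, 12.1% higher and 8.80% lower, and 58.0% of called probes were higher (24.5 to 51.5% under the other scalings). With centring on the array median, Npm2 was called higher and Dppa3 and Tle6 lower. No member was without overlap of the arrays, against 9.52% of all probes. The Spi-C arrays had been hybridised on 2 slides of their own and read with another scanner model and software version, so Spi-C and these cannot be told apart.

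Npm2 measured 4.23, 4.42, 4.07 and 4.25 in the 4 Spi-C 1.0 arrays and 4.27, 3.78, 3.99 and 3.97 in the 4 Spi-C 0.1 arrays. These sat in the upper part of the TSA(-) range of 2.64 to 4.0 or above it, and reached into the IVF range (0.83 ± 0.18 against TSA(-), adjusted p = 0.00077). Ooep measured 1.19, 1.82, 1.59 and 1.43 at 1.0 mg/ml and 1.54, 0.69, 1.29 and 0.97 at 0.1 mg/ml, against 0.37 to 1.30 in TSA(-). Its difference was 0.61 ± 0.15 (adjusted p = 0.0036), and its call was lost under several alternatives, among them centring on the array median (0.41, adjusted p = 0.023), leaving out Spi-C 1.0 replicate 2 (0.55, adjusted p = 0.0102) and leaving out Spi-C 0.1 replicate 1 (0.54, adjusted p = 0.011).

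Dppa3 measured 6.42, 6.61, 6.29 and 6.54 at 1.0 mg/ml and 6.52, 6.23, 6.54 and 6.35 at 0.1 mg/ml, mostly below the TSA(-) range of 6.55 to 6.88. The difference was -0.32 ± 0.08 (adjusted p = 0.0027), but it was 0.03 with quantile normalization (adjusted p = 0.80), and in a fit of TSA(-) and the Spi-C arrays alone it did not pass the test (adjusted p = 0.015). Zbed3 differed by 0.42 (adjusted p = 0.037) and Nlrp5 by 0.32 (adjusted p = 0.071), which is 0.27 and 0.17 above the median of all probes. Zar1 differed by -0.05 (95% interval -0.29 to 0.19), and Tle6, Khdc3 and Padi6 by -0.20, -0.21 and 0.02; Tle6 was called with centring on the array median (-0.40, adjusted p = 0.0069).

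Between the doses of Spi-C mRNA, 0 of 9 members were called by limma (adjusted p = 0.999 for each) and 0 by a one-way analysis with Tukey's HSD, where limma called 0.00506% and the one-way analysis 0.139% of all probes. Zar1 was the only member at an unadjusted p under 0.05. It measured 1.00, 1.25, 1.53 and 1.04 at 1.0 mg/ml and 0.66, 0.63, 0.88 and 0.65 at 0.1 mg/ml, without overlap, a difference of 0.50 (95% interval 0.16 to 0.84) that was 0.48 and 0.51 on the 2 slides. Tle6 was the other member without overlap (0.20), and 3.35% of all probes had none (1.84% higher at 1.0 mg/ml). Ooep differed by 0.39 (95% interval -0.06 to 0.83) and overlapped.

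Set in order by mean level, OC came first for 7 members and Cumulus last for all 9. For Zar1 the order was OC, IVF, Spi-C 1.0, TSA(-), Spi-C 0.1, TSA(+) and Cumulus, with neighbours overlapping only from Spi-C 1.0 to TSA(+). For Dppa3 it was OC, IVF, TSA(+), TSA(-), Spi-C 1.0, Spi-C 0.1 and Cumulus, with the 4 clone groups overlapping. For Ooep, IVF overlapped Spi-C 1.0 and each clone group its neighbour. For Tle6, Khdc3, Padi6 and Nlrp5 no neighbours among the 5 embryo groups were free of overlap, and OC and Cumulus stood apart at either end. For Npm2 and Zbed3 the oocyte fell within the run of overlapping embryo groups, and Cumulus alone stood apart.

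Other genes needed in the egg were taken from a list of 38, of which 36 were tested. From OC to IVF, 25 were called lower and 7 higher, where 42.6% and 23.4% of all probes were, with a median of -1.62 beside -0.87 over all probes. Against Cumulus, 29 were called higher in OC, where 44.1% of all probes were, and 3 lower. The largest falls were in Tet3 (-5.01, although another of its probes was called higher), the dioxygenase that oxidises methylated DNA in the zygote, Sohlh2 (-4.83), an oocyte transcription factor, and Ctnnb1 (-4.43), beta-catenin. The largest gains were in Pms2 (5.75), Ago2 (3.43) and Taf4b (1.93), of which Pms2 and Taf4b were well above background on 6 and 3 of the 7 OC arrays.

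Between TSA(-) and IVF, 7 of these 36 were called lower (10.2% of all probes), led by Nlrp4f (-1.49), the oocyte homeobox gene Nobox (-1.24) and E-cadherin, Cdh1 (-1.14), and Ctnnb1 was called higher (0.61). Between TSA(+) and IVF, 8 were lower (10.8% of all probes), led by Nlrp4f (-1.63), Nobox (-1.45) and Zfp57 (-1.21), and Ctnnb1 was again higher (0.64). None was called between TSA(+) and TSA(-). In Spi-C NT against TSA(-), Ybx2 (1.70), Nlrp2 (0.78) and Ube2a (0.37) were higher (12.1% of all probes) and 7 were lower (8.80%), led by Cdh1 (-1.10), Btg4 (-1.05) and Ctnnb1 (-0.95).

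Genes listed by name as relatives of the members moved in both directions from OC to IVF. Dppa genes are on this list for their name, and their kinship to Dppa3 was not examined. Of 18 tested, 9 were called higher and 5 lower, where 23.4% and 42.6% of all probes were, with a median of 1.16 beside -0.87 over all probes. Padi2 (4.34) and Padi3 (5.04), of the family of Padi6, were higher in IVF and well above background on only 3 and 2 of the 7 OC arrays, and Dppa4 (8.57) on 3, so that the size of these differences is uncertain. Khdc1a (-1.98) and Khdc1b (-1.69), KH domain genes like Khdc3, were lower. Npm1 fell by 3.27 and Npm3 by 1.30 where Npm2 was higher by 1.45. Tle1 (1.69), Tle3 (3.38) and Tle4 (1.25) were higher where Tle6 was lower by 8.32-fold, and Zbed4 was lower (-3.62, although another of its probes was called higher). In TSA(-) against IVF, Zbed4 (1.34) and Tle3 (1.12, with another of its probes called lower) were higher and Tle4 (-1.23) was lower. In TSA(+) against IVF, Tle3 (1.37) and Zbed4 (1.35, with another of its probes called lower) were higher and Khdc1c (-1.07) was lower. In Spi-C NT against TSA(-), Npm3 (0.99) was higher and 4 were lower, led by Npm1 (-0.64), Khdc1c (-0.48) and Khdc1b (-0.45).

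The symbols most like the mean of the 9 members over the 39 arrays, each member centred on its own mean, were Cmya5 (Pearson r = 0.997), Obox1, Mbl2, Nlrp4a and 4931428L18Rik (r = 0.996 each). This is a description over arrays that include the 4 Cumulus arrays, which lay far below the rest for each member.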

How the data were processed

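The authors hybridised Cy3-labelled RNA, 1 sample an array, to the Agilent Whole Mouse Genome 44K array. The deposited processed intensity had been background-subtracted by Feature Extraction (version 9.5.3.1, or 10.5.1.1 for Spi-C and Cumulus, per the file headers), and was not scaled between arrays. The authors' value table of log2 values was used only as an alternative; the paper names GeneSpring GX.

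From the intensity, log2 values were taken minus each array's 75th percentile. Outlier spots were left out (1820 values), controls were kept out of every test, and spots sharing a probe were averaged. Of 41174 probes, those with an intensity of at least 10 on any embryo array were tested with limma 3.58.1 (lmFit, eBayes; R 4.3.3) at a Benjamini-Hochberg adjusted p under 0.01 over all probes. OC, IVF, TSA(-), TSA(+) and Cumulus were fitted together, and IVF, TSA(-), TSA(+) and both Spi-C doses (averaged as Spi-C NT) in a second fit. Both tests were tried on simulated arrays with known changes. Array number and, for dim probes, signal over background limit the precision.

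Accessions were named through RefSeq (GRCm38.p6). Members and lists were chosen with earlier results of these data known. The text names all members and the 5 symbols most correlated with them. From the 2 other lists it names the called genes with the 3 largest changes in each direction, and genes named like a member. Alternatives tried were quantile, median and normexp scaling (offset 50), the authors' table, other probe filters and thresholds, the groups compared alone, slide, scan day or replicate blocks, a one-way analysis with Tukey's HSD, and leaving out each array. Sertoli clones were not analysed here.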

Additional observations from a re-analysis of the deposited data

Results flagged for a closer look

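Of 63 combinations of a member and a group, each tested for a highest or lowest array far from its neighbour with Dixon's test at the 95% level, 1 was singled out: Zar1 in Spi-C 0.1 replicate 3, at 0.88 on the log2 scale, where the next array of that group was at 0.66. Chance alone singles out about 1 group in 20.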

How the results depend on the processing

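The numbers of members called kept within 1.5 times of those given for IVF against OC, both TSA groups against IVF, TSA(+) against TSA(-), OC against Cumulus and the doses of Spi-C mRNA under every alternative run. These are totals over both directions. For IVF against OC, 7 members were called lower and 1 higher, and with quantile normalization 4 lower and 2 higher. For Spi-C NT against TSA(-) the count of 3 went to 0 with a replicate block and to 0 when a 2-fold change was also required. With that block Npm2 differed by 0.55 (adjusted p = 0.029), Ooep by 0.52 (adjusted p = 0.058) and Dppa3 by -0.32 (adjusted p = 0.029). Leaving out each array in turn gave 8 to 8 members for IVF against OC, 4 to 4 for TSA(-) and for TSA(+) against IVF, 9 to 9 for OC against Cumulus, 2 to 3 for Spi-C NT against TSA(-) and 0 to 0 for the other 2 comparisons. Dppa3 turned sign with quantile normalization, to 0.47 in IVF against OC and to 0.0333 in Spi-C NT against TSA(-). The causes were not tested. Replicate numbers do not pair the samples: no same-numbered pair of arrays had deviations correlated over 0.1 (lowest -0.09, highest 0.08). The replicate block gave 8, 4, 4, 0, 9, 0 and 0 members called in the order IVF against OC, TSA(-) and TSA(+) against IVF, TSA(+) against TSA(-), OC against Cumulus, Spi-C NT against TSA(-) and 1.0 against 0.1 mg/ml. Over all probes, calls ran from 4127 to 10419 for TSA(-) against IVF (7404 as given), from 5302 to 16726 for Spi-C NT against TSA(-) (8273), from 2 to 781 for TSA(+) against TSA(-) (57) and from 0 to 55 between the doses (2), so the background shares move with the setting. In the Cumulus arrays, dim signal limits Zar1, Nlrp5 and Zbed3 to bounds, which depend on the scaling.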
